A study of Mus musculus with 10 samples.

Results

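The MHC class I and class II genes were followed across 10 mouse tumors, 8 in the mammary gland and 2 in the lung, with 1 array per tumor. The members were chosen by name: every non-control probe whose gene name in the scanner files was H2-Aa, H2-Ab1, H2-Eb1, H2-DMa, H2-DMb1, Cd74, Ciita (listed under its old name C2ta), H2-K1, H2-D1 or B2m. This gave 10 of the 27962 gene names in the files, with 19 of 41174 non-control probes, and all 19 were among the 40196 probes of the authors' normalized table. Of these probes, 10 belong to 6 class II genes, 1 to Ciita and 8 to 3 class I genes. The study compared 5 sarcomatoid carcinomas, in which carcinoma cells take a spindle shape, with 5 adenocarcinomas. The labels call the tumors numbered 323 and 307 sarcomatoid adenocarcinoma, in both sites, and tumor 594 sarcomatoid carcinoma. The 5 adenocarcinomas (tumors 105, 131, 470, 17 and 85) arose in the mammary gland of mice that carried MMTV-Cre with both Pik3ca H1047R and Trp53 R270H. The sarcomatoid group held 3 mammary tumors (323, 307 and 594) and 2 lung tumors that carry the numbers 323 and 307. Of the 3 mammary sarcomatoid tumors, 1 was Pik3ca H1047R; Trp53 R270H; MMTV-Cre, 1 was Pik3ca H1047R; MMTV-Cre with a spontaneous Trp53 R245H substitution, and 1 was Trp53 R270H; MMTV-Cre without the Pik3ca allele. By elimination the last is tumor 594, the only mammary sarcomatoid tumor without a lung partner, and the labels do not say which of 323 and 307 carries which genotype. All primary tumors came from mice on the C57BL/6 background, and Cre was driven by the MMTV promoter, which acts mainly in mammary epithelium. The lung tumors grew after tail vein injection of cell lines derived from 2 of the mammary sarcomatoid tumors, so any cell in them that is not a tumor cell came from the injected mouse. The paper describes its tail vein test of a sarcomatoid tumor line as syngeneic, in C57BL/6 mice. The host strain of these 2 lung tumors is not stated. Ages are not given in the labels used here. The sarcomatoid group thus holds 3 tumor origins, and its lung tumors are cell line grafts rather than spontaneous metastases.

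MHC class II molecules present peptides from endocytosed proteins to CD4+ T cells and are made mainly by dendritic cells, macrophages and B cells. H2-Aa and H2-Ab1 form the I-A dimer, and H2-Eb1 is the beta chain of the I-E dimer. Cd74, the invariant chain, fills the groove of new dimers, H2-DMa and H2-DMb1 form the exchange factor that loads the peptide, and Ciita is the coactivator that switches the whole set on. MHC class I molecules present peptides from the cytosol to CD8+ T cells on nearly all nucleated cells, and H2-K1 and H2-D1 are their classical heavy chains and B2m their shared light chain. Interferon gamma raises both sets, and epithelial tumor cells can express class II under it.

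The class II promoters carry a shared module known as the X and Y boxes, on which Ciita is recruited, and the stretches below show how alike it is in the members. RefSeq promoters (250 bases before to 50 after the start, GRCm38.p6) were given for 7 of the 10 genes, 9 promoters in all. Capitals mark the letters searched on both strands: GATTGG, the core of the Y box, or CTNGNAAC, a core of the X box whose letters were chosen after these promoters had been read. The motifs do not overlap.
H2-Aa X box, chr17:34287889-34287918, minus strand: aaagtctgcagCTGGCAACtttgacgtcat
H2-Aa Y box, chr17:34287855-34287884, minus strand: agagaattttctGATTGGttctggcgagtt
H2-Eb1 X box, chr17:34305762-34305791, plus strand: tgaatctctaaCTAGCAACtgatgatgctg
H2-Eb1 Y box, chr17:34305795-34305824, plus strand: tcctttgatgctGATTGGctcccagcactg
H2-DMb1 X box, chr17:34153083-34153112, plus strand: atgaggtttacCTAGTAACtgatgatgcta
H2-DMb1 Y box, chr17:34153117-34153146, plus strand: gattcactcagtGATTGGtctgacctgcct
H2-D1 Y box core on the opposite strand, chr17:35263029-35263058, plus strand: agattccaggagCCAATCagcgtcgccgcg
The X core began 35 bases before the Y core in H2-Aa and H2-DMb1 and 34 bases before it in H2-Eb1. GATTGG was present in 16.1% of all 32851 promoters of this length and CTNGNAAC in 13.2%. The X core followed by the Y core at 34 or 35 bases was found in 5 promoters (0.0152%), and 3 of the 5 were these members, from which the spacing had been read. H2-Eb1 held the GATTGG core a second time, on the opposite strand, 35 bases before the start. The X core was not limited to class II, since H2-D1 held it on the opposite strand 212 bases before the start. H2-K1 also held the GATTGG core on the opposite strand, at 1 site shared by its 2 promoters. The site lay 6 bases before the start of 1 promoter and 8 bases after the start of the other. In H2-DMa the only match to GATTGG lay 199 bases before the start of 1 of its 2 promoters, and neither held CTNGNAAC. A match is a description of these letters and was not tested as a binding site.

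Values below are the authors' log2 ratios of tumor over a common reference RNA, so a value of 1 is a level 2-fold above the reference at that probe. Levels of different genes cannot be set against each other on this scale, and only differences between tumors are compared. The direction is likely but not certain. The labels name Cy3 (green) for the tumor RNA, yet the green signal varied less between arrays (mean SD 0.737 on the log2 scale, against 0.975 in red), and each authors' column followed its own array's red over green ratio (r between 0.868 and 0.926 over the probes), and reached no more than 0.744 with the ratio of another array. Red was therefore read as the tumor, and if the dye label were right the sign of every difference would turn. The scaling and centring steps behind the table were not stated, and its column medians ran from -0.05 to 0.07. Arrays were read in 3 scan batches, told apart by the scan day and the extraction protocol in the file headers: tumor 323 alone in batch 1, tumors 307, 594, 105 and 470 in batch 2, and both lung tumors with tumors 131, 17 and 85 in batch 3. Lung and mammary sarcomatoid tumors never shared a batch. The share of probes well above background in the tumor channel ran from 52.2% (tumor 85) to 83.0% (tumor 105). Nothing in the labels says how the RNA samples relate beyond the tumor number, so p-values measure the spread between these samples. With 2 to 5 arrays per group their number limits the precision.

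Transcripts of the class II genes and Ciita were measurable in all 10 tumors. The brightest probe of each of the 10 genes, reported here unless another is named, was well above background in the tumor channel on 10 of 10 arrays. In the reference channel this held for 7 of the 10 genes. The exceptions were H2-Eb1 (not in tumor 85), H2-Aa (not in either lung tumor or tumor 131) and Ciita (not in either lung tumor or tumor 85), whose ratios on those arrays rest on a reference at background. In the file's mm7 coordinates the probe of H2-Ab1 lay at chr17:32346939-32346998, that of H2-DMb1 at chr17:32236685-32236744, that of H2-K1 at chr17:32074445-32074504, that of B2m at chr2:121893518-121893577 and that of Ciita at chr16:10203747-10203806. The files name the transcript a probe was designed on but not its exon. Bulk tumor RNA was measured, so fewer cells that express a gene and less RNA per cell cannot be told apart in any of these values.

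H2-Aa, the I-A alpha chain, had log2 ratios of 6.04 (tumor 323), 5.20 (307) and 5.73 (594) in the mammary sarcomatoid tumors, 2.54 (323) and 2.90 (307) in the lung, and 4.76 (105), 3.02 (131), 5.03 (470), 4.59 (17) and 1.77 (85) in the adenocarcinomas. All 3 mammary sarcomatoid tumors were above every other tumor, and the lung tumors lay within the range of the adenocarcinomas. The second H2-Aa probe also placed the mammary sarcomatoid tumors (5.92 to 6.54) above the lung tumors (2.56 in 323 and 2.48 in 307). It read 5.00 in tumor 85, so the 2 probes disagree on that tumor. The reference signal of the second probe was not well above background on any of the 5 arrays of scan batch 3.

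H2-Ab1, the I-A beta chain, had log2 ratios of 4.38 (323), 3.74 (307) and 3.79 (594) in the mammary sarcomatoid tumors, 3.36 (323) and 3.41 (307) in the lung, and 3.72 (105), 2.96 (131), 3.63 (470), 3.70 (17) and 3.47 (85) in the adenocarcinomas. This was the narrowest spread of any class II member. The other 3 H2-Ab1 probes spread more widely, from 4.46 to 5.58 in the mammary sarcomatoid tumors and from 1.98 to 2.74 in the lung. Their reference signal was well above background on 8, 8 and 6 of the 10 arrays. The brightest probe therefore stands apart from the rest of its gene, and its channel signals are given further on.

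H2-Eb1, the I-E beta chain, had log2 ratios of 4.70 (323), 4.89 (307) and 4.78 (594) in the mammary sarcomatoid tumors, 2.19 (323) and 2.52 (307) in the lung, and 4.76 (105), 2.66 (131), 4.41 (470), 4.57 (17) and 2.44 (85) in the adenocarcinomas. Tumors 131 and 85 were at the level of the lung tumors, and the other 3 adenocarcinomas were close to the mammary sarcomatoid tumors.

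**Figure D1:**
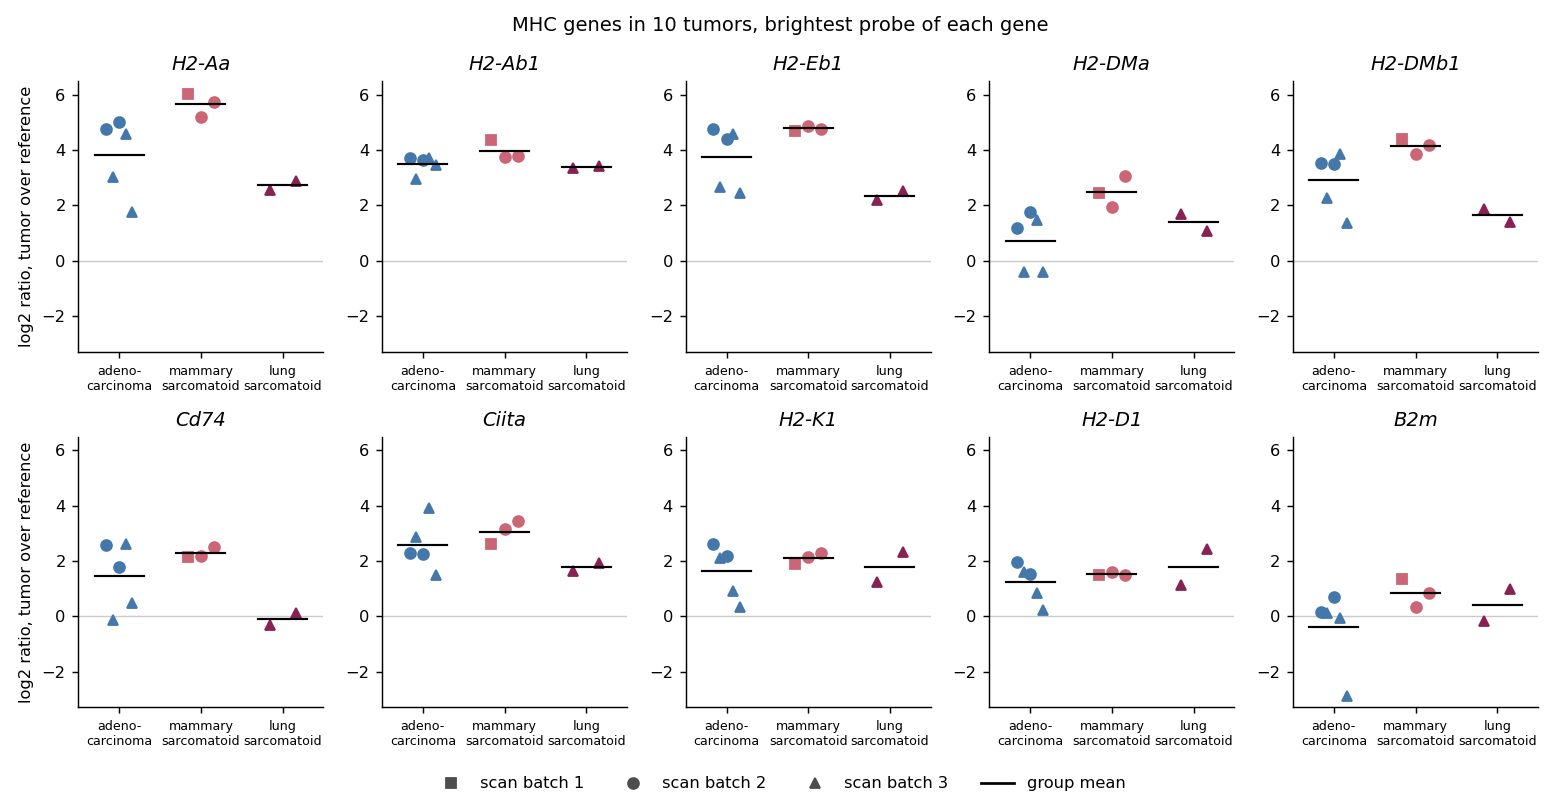
Log2 ratio of tumor over reference (y axis) of the brightest probe of each of the 10 MHC genes in 5 adenocarcinomas, 3 mammary sarcomatoid and 2 lung sarcomatoid tumors. Each point is 1 tumor, its shape is the scan batch and the line is the group mean. The lung points of the 6 class II genes and Ciita lie below all 3 mammary sarcomatoid points, while those of H2-K1, H2-D1 and B2m overlap them.

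Of the peptide-loading genes, H2-DMb1 and Cd74 were low in much the same tumors. H2-DMa was lowest in tumors 131 and 85, and its lung values were close to those of tumors 105, 470 and 17. H2-DMb1 had log2 ratios of 4.39 (323), 3.84 (307) and 4.19 (594) in the mammary sarcomatoid tumors, 1.87 (323) and 1.41 (307) in the lung, and 3.55 (105), 2.28 (131), 3.51 (470), 3.87 (17) and 1.35 (85) in the adenocarcinomas. Tumors 131 and 85 were again the lowest adenocarcinomas, and the mammary sarcomatoid tumors overlapped the adenocarcinomas by tumor 17 alone. H2-DMa, the partner of H2-DMb1, had log2 ratios of 2.47 (323), 1.96 (307) and 3.08 (594) in the mammary sarcomatoid tumors, 1.70 (323) and 1.09 (307) in the lung, and 1.19 (105), -0.41 (131), 1.76 (470), 1.46 (17) and -0.42 (85) in the adenocarcinomas. It was the class II member with the highest mean difference between all sarcomatoid tumors and the adenocarcinomas, and its lung values stayed within 1 log2 unit of the mammary ones of the same tumor number. Cd74, the invariant chain, had log2 ratios of 2.13 (323), 2.17 (307) and 2.52 (594) in the mammary sarcomatoid tumors, -0.30 (323) and 0.13 (307) in the lung, and 2.56 (105), -0.12 (131), 1.77 (470), 2.61 (17) and 0.49 (85) in the adenocarcinomas. In 4 of the 10 tumors, both lung tumors and tumors 131 and 85, Cd74 was at most 0.49, and in the other 6 it was at least 1.77.

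Ciita, the coactivator, had log2 ratios of 2.60 (323), 3.15 (307) and 3.43 (594) in the mammary sarcomatoid tumors, 1.63 (323) and 1.93 (307) in the lung, and 2.27 (105), 2.88 (131), 2.26 (470), 3.92 (17) and 1.50 (85) in the adenocarcinomas. Tumor 131, low for every class II chain, was not low for Ciita. Over the 10 arrays Ciita had a Pearson r of 0.64 with the mean of the 6 class II genes, and a value of 0.22 over the 6 arrays in which that mean was high. These are descriptions over arrays that share scan batches.

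The class I genes had another order of tumors. H2-K1 had log2 ratios of 1.90 (323), 2.14 (307) and 2.29 (594) in the mammary sarcomatoid tumors, 1.23 (323) and 2.33 (307) in the lung, and 2.63 (105), 2.10 (131), 2.19 (470), 0.91 (17) and 0.34 (85) in the adenocarcinomas. H2-D1 had 1.51 (323), 1.60 (307) and 1.48 (594) in the mammary sarcomatoid tumors, 1.12 (323) and 2.42 (307) in the lung, and 1.95 (105), 1.60 (131), 1.53 (470), 0.84 (17) and 0.24 (85) in the adenocarcinomas. Both heavy chains were lowest in tumors 17 and 85, and the lung tumor 307 was above its mammary counterpart. Class I heavy chains are near copies of each other, so signal from a relative at these probes is possible and was not tested. The other 2 H2-K1 probes ran from 0.57 to 2.36 over the 10 tumors. The second probe listed as H2-D1 is described in the file as a thymus leukemia antigen, was well above background on 5 of 10 arrays and ran from -1.88 to -0.68.

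B2m had log2 ratios of 1.34 (323), 0.35 (307) and 0.84 (594) in the mammary sarcomatoid tumors, -0.18 (323) and 0.97 (307) in the lung, and 0.16 (105), 0.12 (131), 0.69 (470), -0.07 (17) and -2.90 (85) in the adenocarcinomas. Tumor 85 was far below the rest at all 3 B2m probes, and the other 4 adenocarcinomas overlapped the sarcomatoid tumors. The red signal of B2m in tumor 85 was 12.75 on the log2 scale, against 15.54 to 17.53 on the other arrays, and tumor 85 was the array with the lowest share of probes above background.

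Averaged over 6 genes, class II separated the tumors into a high and a low set, and class I did not follow it. The class II mean log2 ratio was 4.02 (323), 3.63 (307) and 4.02 (594) in the mammary sarcomatoid tumors, 1.89 (323) and 1.91 (307) in the lung, and 3.42 (105), 1.73 (131), 3.35 (470), 3.47 (17) and 1.52 (85) in the adenocarcinomas. No tumor lay between 1.91 and 3.35. The class I mean was 1.58 (323), 1.36 (307) and 1.54 (594) in the mammary sarcomatoid tumors, 0.72 (323) and 1.90 (307) in the lung, and 1.58 (105), 1.27 (131), 1.47 (470), 0.56 (17) and -0.77 (85) in the adenocarcinomas. Tumor 17 had high class II with low class I, and the lung tumor 307 had low class II with the highest class I of the 10. Tumor 85 was lowest for both means, though its 2 H2-Aa probes disagreed. In the tumor channel alone, scaled within each array, its class II mean was 0.89. That was above tumor 131 (0.46) and the lung tumors 323 (0.72) and 307 (0.64). The 4 tumors with low class II were all read in scan batch 3, in which tumor 17 was the only array of the high set.

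**Figure D2:**
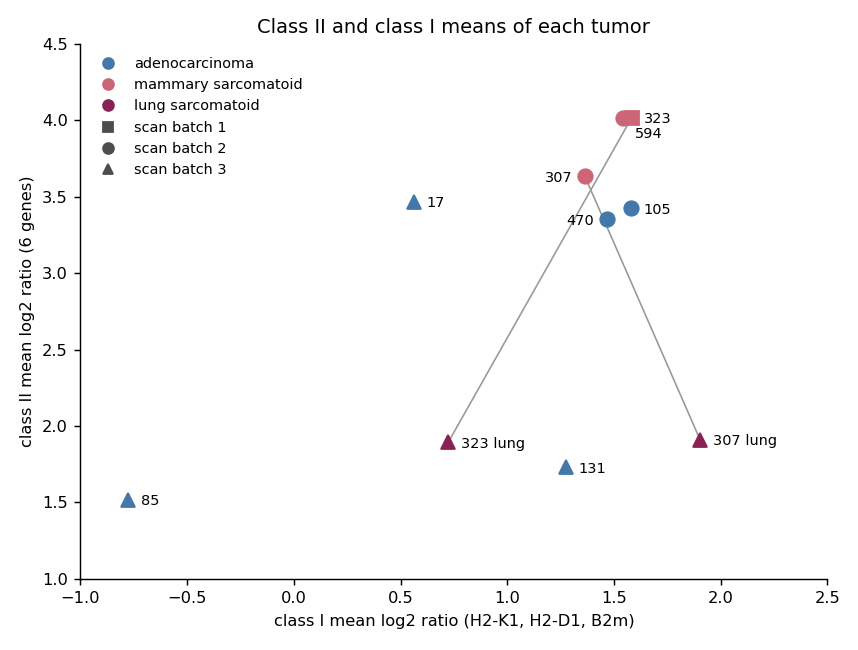
Mean log2 ratio of 6 class II genes (y axis) against that of 3 class I genes (x axis), 1 point per tumor, labelled with the tumor number, coloured by group and shaped by scan batch. Grey lines join the mammary and lung tumors of the same number. The mammary sarcomatoid tumors lie at class II means of 3.63 to 4.02 and the lung tumors at 1.89 and 1.91, with class I means on both sides of the mammary ones.

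The first comparison asked whether sarcomatoid carcinomas and adenocarcinomas differ in these genes. The class II mean was 3.09 ± 1.10 (SD, n = 5) in the sarcomatoid tumors and 2.70 ± 0.98 (SD, n = 5) in the adenocarcinomas, a difference of 0.40. The class I mean was 1.42 ± 0.44 (SD, n = 5) and 0.82 ± 0.98 (SD, n = 5), a difference of 0.60. Both differences were smaller than the spread within the adenocarcinomas. Within scan batches 2 and 3 the class II mean differed by 0.44 and -0.34 and the class I mean by -0.07 and 0.96, and with scan batch as a term the class II difference was 0.0155. In limma, 0 of 19 member probes passed an adjusted p of 0.05, as did 0% of all probes (smallest adjusted p 0.330). At an unadjusted p below 0.05, 2 of 19 member probes were higher and 0 lower, beside 4.98% higher among all probes. These were H2-DMa, with a log2 difference of 1.34 ± 0.51 (SE; adjusted p = 0.463), and the thymus leukemia antigen probe. The median difference over the 19 probes was 0.34, and over all probes 0.00. For B2m the log2 difference was 1.06 ± 0.60 (SE; adjusted p = 0.618), and the mean without tumor 85 differed by 0.44. The values of H2-Eb1 (0.05), H2-DMb1 (0.23), Cd74 (-0.13) and Ciita (-0.02) were close to 0, with 95% intervals that reached beyond 1 log2 unit in both directions.

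The second comparison took mammary tumors alone, 3 sarcomatoid against 5 adenocarcinomas. All 6 class II genes had higher group means in the sarcomatoid tumors, by 0.48 (H2-Ab1) to 1.82 (H2-Aa) on the log2 scale, and the class II mean was 3.89 ± 0.22 (SD, n = 3) against 2.70 ± 0.98 (SD, n = 5). The class II means of the groups did not overlap, while the class I means did (1.50 ± 0.12, n = 3, against 0.82 ± 0.98, n = 5). In limma 0 of 19 member probes passed the adjusted threshold, as did 0% of all probes. At an unadjusted p below 0.05, 7 of 19 were higher, beside 4.83% of all probes, and 6 of the 7 were class II probes. H2-DMa differed by 1.78 ± 0.56 (SE; adjusted p = 0.556), and H2-Aa by 1.82 ± 0.67 (SE; adjusted p = 0.558). Within scan batch 2, which held 2 tumors of each kind, the class II mean differed by 0.44 and the class I mean by -0.07. In that batch H2-DMa differed by 1.04, Ciita by 1.02 and H2-Aa by 0.57.

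The third comparison set the 2 lung against the 3 mammary sarcomatoid tumors. All 6 class II genes had lower means in the lung, with a class II mean of 1.90 ± 0.01 (SD, n = 2). The mammary mean was 3.89 ± 0.22 (SD, n = 3), and the log2 difference was -1.99. The class I mean was 1.31 ± 0.83 (SD, n = 2) against 1.50 ± 0.12 (SD, n = 3), a difference of -0.18. In limma 0 of 19 member probes passed the adjusted threshold, where 0.0249% of all probes did (4 higher, 6 lower, none of them a member). At an unadjusted p below 0.05, 8 of 19 member probes were lower, beside 5.10% of all probes. All 8 were class II probes, of the 10 measured, and none of the 8 class I probes was among them. Both lung tumors were below all 3 mammary sarcomatoid tumors at 11 of the 19 probes (the 10 class II probes and Ciita), beside 16.9% of all probes. The median difference was -2.47 over the 10 class II probes, -0.35 over the 8 class I probes and 0.03 over all probes.

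H2-Aa was lower in the lung by a log2 difference of -2.94 ± 0.84 (SE; adjusted p = 0.308), and the second H2-Aa probe by -3.74 ± 0.60 (SE; adjusted p = 0.126). The second probe passed the threshold when adenocarcinoma replicate 2 (tumor 131) or replicate 3 (tumor 470) was left out of the shared spread (adjusted p of 0.0312 and 0.0363). H2-DMb1 differed by -2.50 ± 0.67 (SE; adjusted p = 0.280), H2-Eb1 by -2.43 ± 0.68 (SE; adjusted p = 0.299) and Cd74 by -2.36 ± 0.75 (SE; adjusted p = 0.340). For H2-DMb1, H2-Eb1 and Cd74 the reference signal was well above background on both lung arrays. Their ratios to the reference were 5.13-fold (Cd74) to 5.67-fold (H2-DMb1) lower in the lung, without passing the test. The reference was not constant at these probes. Scaled within each array, its signal differed by -2.34 (H2-Eb1), -0.81 (H2-DMb1) and -0.65 (Cd74) between lung and mammary sarcomatoid tumors. The folds are therefore not those of the tumor signal alone. Neither H2-Aa probe had a reference signal well above background in the lung. H2-DMa differed by -1.10 ± 0.70 (SE; adjusted p = 0.603), Ciita by -1.28 ± 0.60 (SE; adjusted p = 0.484) and the brightest H2-Ab1 probe by -0.59 ± 0.36 (SE; adjusted p = 0.589). The other 3 H2-Ab1 probes differed by -2.27, -2.62 and -3.28 (adjusted p of 0.319, 0.160 and 0.212 in limma), so the brightest probe gave the smallest difference of the gene. The reference signal of the -3.28 probe was not well above background on either lung array, and that of the -2.62 probe not in lung tumor 323. For the -2.27 probe it was well above background on both lung arrays. In class I, H2-K1 differed by -0.34 (95% interval -1.76 to 1.09), H2-D1 by 0.24 (-0.94 to 1.42) and B2m by -0.45 (-2.41 to 1.52).

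The lung and mammary tumors of the same number gave the same picture for class II and opposite ones for class I. The class II mean was lower in the lung by a log2 difference of -2.12 in tumor 323 and -1.72 in tumor 307. Of the single genes, H2-Aa differed by -3.50 and -2.30, H2-Eb1 by -2.51 and -2.37, H2-DMb1 by -2.52 and -2.43, and Cd74 by -2.43 and -2.04 in tumors 323 and 307. H2-Ab1 (-1.02 and -0.33), H2-DMa (-0.77 and -0.87) and Ciita (-0.97 and -1.21) differed less. The class I mean differed by -0.86 in tumor 323 and by 0.54 in tumor 307, and B2m by -1.52 and 0.62. The median over all probes differed by 0.02 and -0.02.

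**Figure D3:**
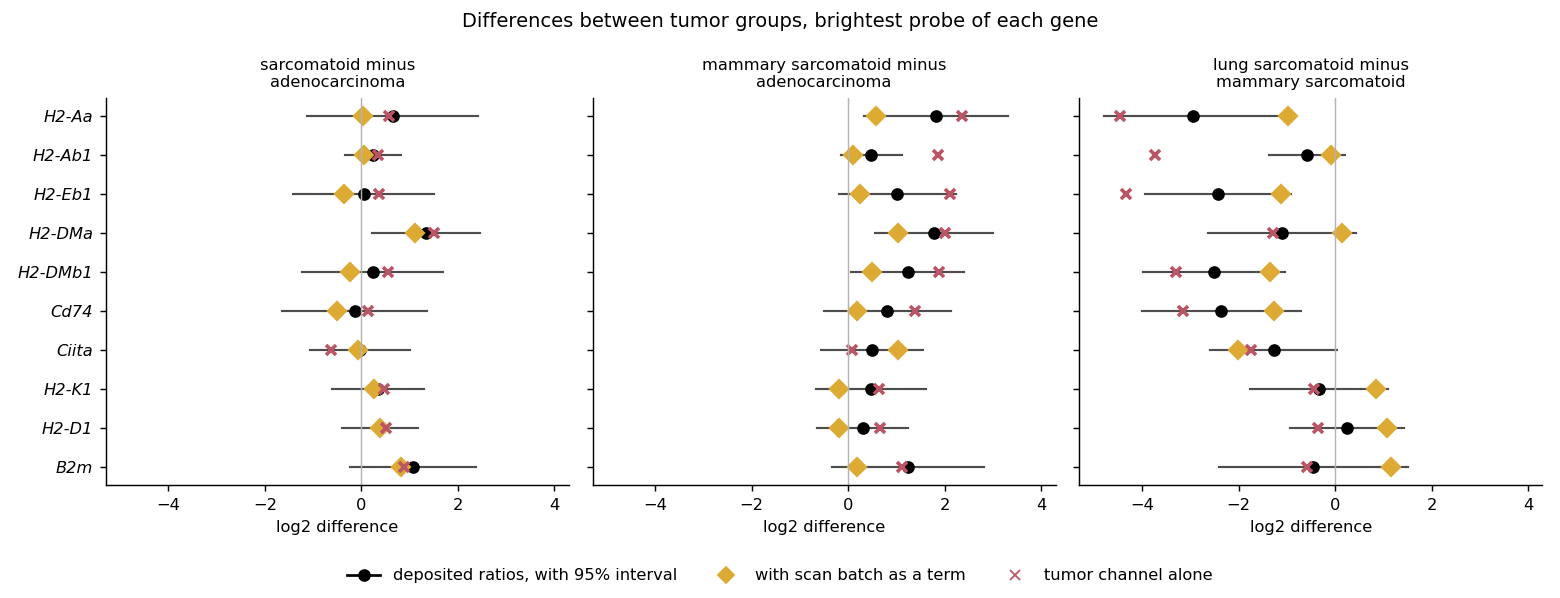
Log2 difference (x axis) of the brightest probe of each MHC gene in 3 comparisons. Black points with lines are the deposited ratios with 95% intervals from limma, diamonds the same fit with scan batch as a term, and crosses the tumor channel alone. In the lung comparison H2-Aa stands at -2.94 on the deposited ratios, at -0.98 with the batch term and at -4.46 in the tumor channel alone.

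Scan batch moved with the low class II values. Among the adenocarcinomas, which are all mammary, the class II mean was 3.39 in the 2 tumors of batch 2 and 2.24 in the 3 of batch 3, and the class I mean was 1.52 and 0.35. In batch 3 the adenocarcinomas ran from 1.52 to 3.47 in class II, a range that holds both lung tumors. With scan batch as a term the lung difference was -0.77 for the class II mean, -0.98 for H2-Aa, -1.35 for H2-DMb1 and -1.26 for Cd74, and 1.03 for the class I mean. With this term the lung difference rests on the adenocarcinomas to set the level of each batch. Site and scan batch cannot be told apart within the sarcomatoid tumors. Against the 3 adenocarcinomas of their own batch, the lung tumors differed by -0.34 in the class II mean and by 0.96 in the class I mean. In that batch Cd74 differed by -1.08 and H2-DMa by 1.19, so the class II genes did not share a direction there.

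The reference channel was not constant at the class II probes. For H2-Ab1 the red signal ran from 12.05 to 16.76 on the log2 scale over the 10 arrays and the green signal from 8.57 to 12.77, with a correlation of 0.997 between them over the 10 arrays, which share scan batches. For H2-Eb1 the red range was 5.39 and the green range 3.45, and for H2-DMb1 they were 5.15 and 2.13. At H2-K1 the ranges were 3.17 and 0.89, and at B2m 4.78 and 1.22. Over all probes the median range was 2.62 in red and 1.84 in green. A ratio taken at a probe where green follows red is smaller than the change in red, whatever the source of the green signal, which was not tested. The tumor channel alone, scaled to the 75th percentile of each array (an alternative chosen after seeing the data), gave lung differences of -4.46 for H2-Aa, -4.33 for H2-Eb1, -3.74 for H2-Ab1, -3.31 for H2-DMb1 and -3.15 for Cd74. The class II mean then differed by -3.38 and the class I mean by -0.46. None of the 19 member probes passed the adjusted threshold on this scale either.

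**Figure D4:**
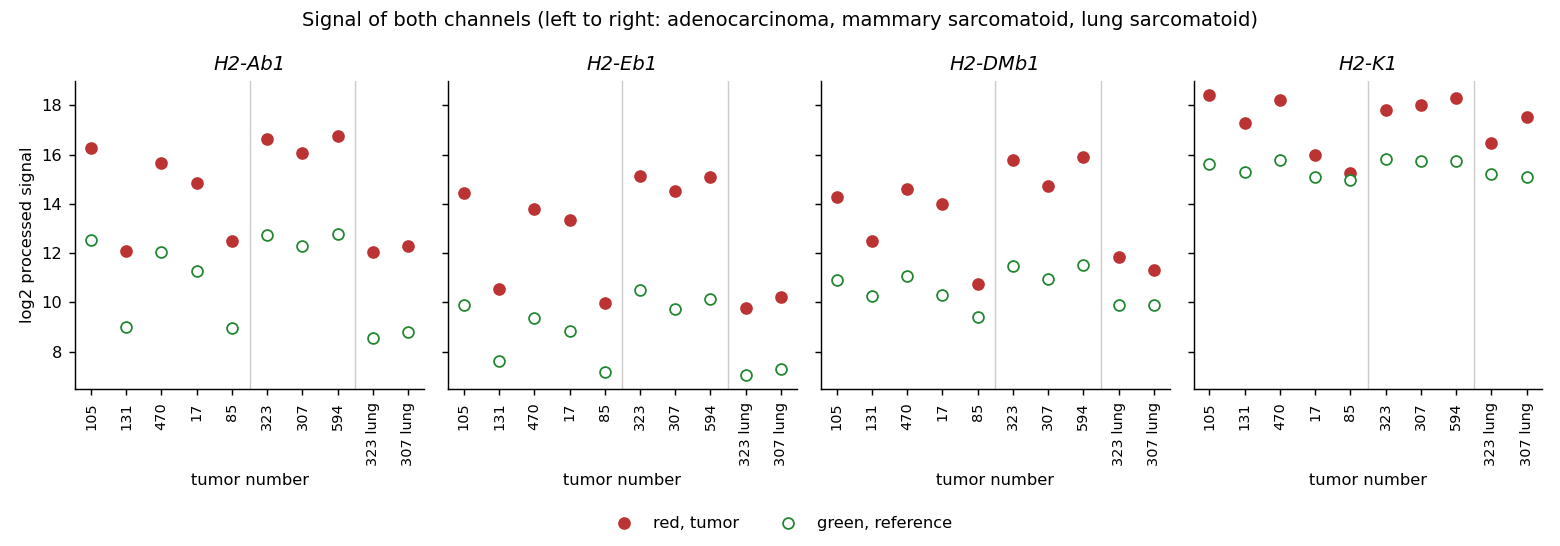
Log2 processed signal (y axis) in the red (tumor, filled) and green (reference, open) channel of the brightest probes of H2-Ab1, H2-Eb1, H2-DMb1 and H2-K1 on each array (x axis, tumor number). Grey lines part the adenocarcinomas, the mammary sarcomatoid and the lung sarcomatoid tumors. At H2-Ab1 the green signal falls and rises with the red one, from 8.57 to 12.77, and at H2-K1 it stays within a range of 0.89.

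Other genes of the class II pathway did not share a direction in the lung. None of the 8 listed genes passed the adjusted threshold in any comparison, and the 8 had a median lung minus mammary difference of -0.04. H2-DMb2, a second DM beta chain, differed between lung and mammary sarcomatoid tumors by -2.30, and H2-Oa, a chain of the DO dimer that restrains DM, by -2.12. H2-Ob, the other DO chain, was well above background on 5 of 10 arrays and on neither lung array. In contrast Ctss, the cysteine protease that cuts the invariant chain, differed by -0.16 and the lysosomal enzymes Ifi30 and Lgmn by 0.73 and 0.23. Between all sarcomatoid tumors and the adenocarcinomas Ctss was higher by 2.01 ± 0.61 (SE; adjusted p = 0.381), and all 8 genes had a positive difference.

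H2-Ea, the alpha chain that I-E needs to reach the cell surface, was detected in the lung tumors alone. The gene is silent in C57BL/6 mice, whose H-2b haplotype carries a deletion in its promoter. Its probe was well above background in the tumor channel on both lung arrays and on none of the other 8, a pattern held by 14 of 40196 probes. The red signal was 7.99 (323) and 8.11 (307) in the lung on the log2 scale, and between 2.25 and 5.34 on the other 8 arrays. The 3 adenocarcinomas read in the same scan batch had 3.42 (131), 2.78 (17) and 4.43 (85). The red signal was also renormalized from the scanner values, with a background offset of 50, loess and quantile normalization. On that scale the lung tumors were at least 2.88-fold higher than the mammary sarcomatoid tumors and at least 2.99-fold higher than the adenocarcinomas. Counting no other tumor below the lowest signal called above background on its array left the group means at 6.21 and 6.16. On the deposited ratios the lung minus mammary sarcomatoid difference was 2.52 (limma, adjusted p = 0.223). The deposited log2 ratios were 2.25 and 3.44 in the lung and -1.73 to 0.79 elsewhere. The source of this transcript was not tested.

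The factors that bind the class II promoter with Ciita showed no shared direction. All 7 listed genes (Rfx5, Rfxap, Rfxank, Nfya, Nfyb, Nfyc and Creb1) were above background on at least 9 of the 10 arrays, and 0 passed the adjusted threshold. Their median difference was 0.13 between all sarcomatoid tumors and the adenocarcinomas and 0.17 between lung and mammary sarcomatoid tumors. The largest positive values in the first comparison were 0.36 (Rfxank) and 0.18 (Nfyb), and the largest negative ones -0.27 (Nfyc) and -0.18 (Rfxap). In the lung comparison Rfxap differed by 0.80 ± 0.30 (SE; adjusted p = 0.392), Rfx5 by 0.66 and Creb1 by -0.74.

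Genes of class I peptide supply were measured by 12 of 14 listed genes (Psme2 and Nlrc5 had no named probe), and 0 passed. The largest differences between all sarcomatoid tumors and the adenocarcinomas were those of the immunoproteasome subunits Psmb10 (1.14 ± 0.33 SE; adjusted p = 0.363) and Psmb8 (1.07 ± 0.28 SE; adjusted p = 0.337). The only negative value was that of Pdia3 (-0.13), a chaperone of the loading complex, and the smallest positive one that of Calr (0.03), another of them. The peptide transporter Tap1 differed by 0.21. Of the 11 other class I heavy chains, 9 had positive differences and 0 passed, and H2-M3, which presents formylated peptides, had the largest (2.03 ± 0.51 SE; adjusted p = 0.330), followed by Cd1d1 (0.97). The 2 negative values were those of H2-T23 (-0.18) and H2-Q2 (-0.16). Between lung and mammary sarcomatoid tumors the median difference was 0.42 for the supply genes and -0.02 for the heavy chains.

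The interferon gamma axis had 12 of 12 positive differences between all sarcomatoid tumors and the adenocarcinomas (median 0.75), and 0 passed. The largest were those of the chemokine Cxcl10 (1.57) and the feedback inhibitor Socs1 (1.42). The 12 genes had a median difference of -0.31 between lung and mammary sarcomatoid tumors, with 10 of 12 negative.

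Markers of several cell types were also lower in the lung. Lung and mammary sarcomatoid tumors shared no scan batch, so site and batch cannot be told apart in these differences. No marker passed the adjusted threshold in any comparison. Of 9 dendritic cell markers, 8 had lower means in the lung than in the mammary sarcomatoid tumors, with a median of -0.38. Only 7 of the 9 were above background on at least 5 arrays, and the others were so on neither lung array. Itgax differed by -2.54 and Batf3 by -2.11. The summed tumor channel signal of the dendritic list, as log2 against the 75th percentile of each array, was 3.45 to 4.26 in the mammary sarcomatoid tumors, 2.61 to 2.83 in the lung and 1.52 to 3.38 in the adenocarcinomas. Of 8 T cell markers, 7 had lower means in the lung (median -1.32), among them Cd3d (-4.15) and Cd3g (-3.06), of which Cd3d was above background on 1 of the 2 lung arrays, and their summed signal was 1.34 to 2.18 in the mammary sarcomatoid tumors, -0.97 to -0.55 in the lung and -0.48 to 1.72 in the adenocarcinomas. Cd8a and Cd247 were above background on neither lung array. Cd3g and Cd3d were also lower in the mammary adenocarcinomas of the lung tumors' scan batch. Cd3g was -3.52 (131), -3.88 (17) and -4.59 (85) in batch 3, against -1.59 (105) and -1.40 (470) in batch 2. Cd3d was 0.14, 0.38 and -0.05 in batch 3, against 2.81 and 2.74 in batch 2. Of 8 B cell markers, 6 had lower means in the lung (median -0.47), and the summed signal was -0.75 to -0.10, -1.83 to -1.08 and -1.54 to 2.01. Only 5 of the 8 were above background on at least 5 arrays, and the others were so on neither lung array.

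Macrophage markers overlapped between the sites in their summed signal. Of 9 markers, 6 had lower means in the lung, with a median of -0.33, and C1qa differed by 0.07. Their summed signal was 6.49 to 7.64 in the mammary sarcomatoid tumors, 6.73 to 6.88 in the lung and 4.25 to 6.57 in the adenocarcinomas. The pan-leukocyte list had a median of -0.29, with sums of 5.94 to 7.02, 5.84 to 5.88 and 3.96 to 5.91. In the comparison of all sarcomatoid tumors with the adenocarcinomas, 9 of 9 macrophage markers and 6 of 6 pan-leukocyte markers had positive differences (medians 1.51 and 1.24), while the class II mean differed by 0.40.

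All 9 epithelial markers had lower means in the lung (median -3.38), with Cldn7 at -5.06 and Epcam at -4.67, and sums of 5.95 to 6.88 in the mammary sarcomatoid tumors, 2.70 to 3.44 in the lung and 3.37 to 8.64 in the adenocarcinomas. Tumor 470 was the lowest adenocarcinoma at every epithelial marker. Its Epcam value was -3.03, against 2.44 to 4.03 in the other adenocarcinomas, and its Cldn7 value -1.95, against 3.43 to 3.85. This tumor was also 1 of the 2 adenocarcinomas of scan batch 2. Lung epithelium markers had a median of 0.44. Sftpa1 was above background on no array, Sftpc on 1 of the 2 lung arrays, and the sums of the list were -1.21 to -1.16 in the lung and -1.68 to -0.37 in the mammary sarcomatoid tumors. Of the lymph node stroma list, 3 of 4 genes had a probe, and their sums were -2.36 to 2.85 in the lung, -1.19 to 0.61 in the mammary sarcomatoid tumors and -2.52 to 2.57 in the adenocarcinomas. The part of any of these cell types in the class II values was not tested.

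**Figure D5:**
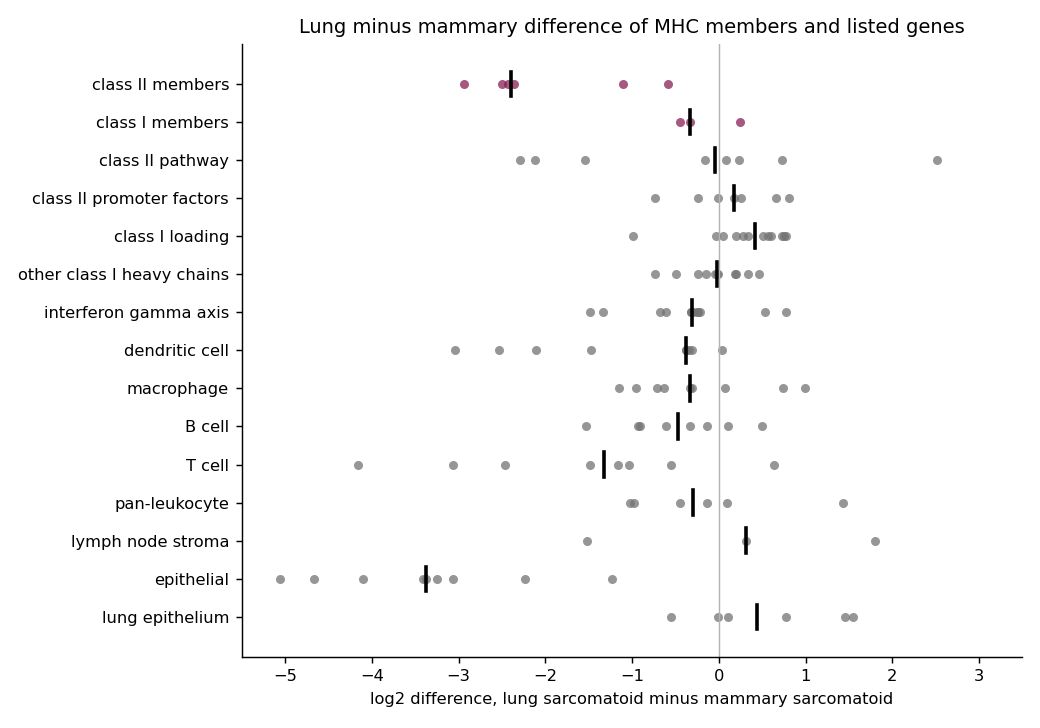
Log2 difference of lung minus mammary sarcomatoid tumors (x axis) of the 6 class II and 3 class I members and of the genes of 13 lists, brightest probe of each gene, with the list median as a black bar. The class II members lie between -2.94 and -0.59 and the class I members between -0.45 and 0.24, and the list medians are below 0 in 9 of the 13 lists.

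The genes most like the class II mean over the 10 arrays were named as a description, among 13903 genes above background on at least 8 arrays with the members left out. They were H2-DMb2 (r = 0.963), Arl5c (0.945), Mgl2 (0.943), Rock1 (0.942) and Luc7l2 (0.940). Since the tumors fall into a high set of 6 and a low set of 4, which are also split by scan batch but for tumor 17, these values mostly describe that split. Within the 6 tumors of the high set r was 0.927 for H2-DMb2, 0.846 for Mgl2, a lectin of macrophages and dendritic cells, 0.708 for Arl5c, 0.656 for Rock1 and -0.051 for Luc7l2. H2-DMb2 ran from 1.70 to 3.11 in the high set and from -0.42 to 0.77 in the low set, and Mgl2 from 1.70 to 5.17 and from -1.30 to 0.49. Whether the H2-DMb2 probe also takes up transcript of H2-DMb1, a member, was not tested.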

How the data were processed

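RNA of 10 mouse tumors was hybridised, with a common reference RNA, to 2-colour Agilent mouse arrays. The authors deposited scanner files with spot intensity in both channels, made with Feature Extraction, and a normalized table of log2 ratios. Their methods name limma for it and give no steps or version. That table was used, 40196 of 41174 non-control probes, with no filter on dim probes. The log10 ratio that the deposited scanner files give per spot served as an alternative.

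The 3 comparisons were fitted over all probes with lmFit and eBayes (limma 3.58.1, R 4.3.3). Tests were two-sided with Benjamini-Hochberg adjustment at 0.05. The first fit had 2 groups, the others 3 groups on all 10 arrays. Class means used the brightest probe of a gene and carry no p. Tumors 323 and 307 pair a lung with a mammary array by tumor number, through the cell lines named in the methods, and the fits reported carry no block. On simulated data with 100 changed probes of each size among 40196, the lung comparison recovered 21% of log2 changes of 2 and 77% of changes of 4.

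The members and lists were chosen with earlier results of these data known. All members were named. Genes of the pathway lists were named where they passed the threshold, had 1 of the 2 largest differences of either sign in the first comparison among probes above background on at least 5 arrays, or were H2-Ea. H2-DMb2, H2-Oa, H2-Ob, Ifi30, Calr and Tap1, and the lung values of Rfxap, Rfx5 and Creb1, were added after they had been seen. Of each marker list at most 2 genes were named with a difference, picked with their lung values known, and Cd8a, Cd247, Sftpc and Sftpa1 were named for their background calls. The lists were class II pathway, promoter factors, class I loading, other class I heavy chains, interferon gamma axis, and markers of dendritic cells, macrophages, B cells, T cells, leukocytes, lymph node stroma, epithelium and lung epithelium. Gene names came from the files or from RefSeq (GRCm38.p6). One promoter match is not reported here. Python 3.11.15 with scipy 1.17.1 computed the rest. Alternatives were the scanner values, other normalizations, a dim filter, batch, slide and tumor number terms, an intensity trend and leaving out each array.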

Additional observations from a re-analysis of the deposited data

Results flagged for a closer look

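The B2m value of adenocarcinoma 85 stood apart from the other 4 adenocarcinomas at all 3 probes of the gene. Its log2 ratio was -2.90 at the brightest probe, where the others ran from -0.07 to 0.69. It was -3.24 at the second probe (others -0.17 to 0.68) and -0.90 at the third (others 1.58 to 2.47). The gap to the nearest tumor took 79.1%, 78.4% and 73.7% of the range of the group, above the critical ratio of 0.71 of Dixon's test for 5 samples. A total of 42 groups of values were looked at in this way, and chance flags about 1 in 20. The same array had the lowest share of probes well above background in the tumor channel (52.2%). H2-K1 (0.34) and H2-D1 (0.24) were also lowest there, without standing apart by this test. The part of array quality in these values was not tested.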

How the results depend on the processing

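No member probe passed the adjusted threshold in the 3 comparisons under any alternative, other than the second H2-Aa probe in the lung comparison without tumor 131 or tumor 470 (0 to 1 probes over the arrays left out). Counts over all probes depended on tumor 470 (adenocarcinoma replicate 3): without it 340 probes passed as higher and 278 as lower in the first comparison, 125 and 85 in the mammary comparison, and 11 and 73 in the lung comparison, none of the first 2 comparisons' calls being a member probe. Quantile normalization gave 12 higher and 10 lower in the lung comparison, scan batch as a term 0, loess of the scanner values 1 and 1, median centring 2 and 1, the scanner log ratio 4 and 1, the tumor channel alone 0 and 2, and the other arrays left out 0 to 5 higher and 0 to 3 lower. With tumor number as a replicate block, random over all arrays, the class II lung difference was -1.98, and with a fixed block over tumors 323 and 307 it was -1.92. The random block gave 6 higher and 7 lower calls over all probes and the fixed block 0, and neither changed the call of a member. Scan batch as a term moved the class II mean difference to 0.0155 in the first comparison, to 0.44 in the mammary comparison and to -0.77 in the lung comparison, and the class I lung difference to 1.03. The mammary value is the difference within scan batch 2 by construction, since no other batch held both kinds of mammary tumor. It is therefore not a separate check. The tumor channel alone, added after seeing the data, gave -3.38 for the class II lung difference. Signs turned with scan batch as a term for H2-Eb1 (-0.36) and H2-DMb1 (-0.24) in the first comparison, H2-K1 (-0.19) and H2-D1 (-0.20) in the mammary comparison, and H2-DMa (0.14), H2-K1 (0.85) and B2m (1.17) in the lung comparison. They also turned for H2-Eb1 (-0.012) and mammary Ciita (-0.087) with median centring, for Ciita with quantile normalization (0.10) and with slide as a block (0.21), and in the tumor channel alone for Cd74 (0.13, first comparison) and H2-D1 (-0.35, lung). None of these single values passed the test. Leaving out single arrays turned signs in the first comparison for H2-Eb1 (-0.28 to 0.45), H2-DMb1 (-0.16 to 0.66), Cd74 (-0.53 to 0.27) and Ciita (-0.28 to 0.32), and in the lung comparison for H2-K1 (-0.88 to 0.21), H2-D1 (-0.41 to 0.89) and B2m (-1.02 to 0.12). The class II lung difference stayed between -2.12 and -1.92. The cause of these shifts was not tested.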
